A study of Mus musculus with 9 samples.

Results

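The genes described here encode splicing factors and spliceosome proteins. They are the rows of the gene table whose symbol begins with Srsf and a digit (SR proteins), Hnrnp (hnRNP proteins), Snrp, Sf3a, Sf3b, U2af1 or U2af2 (snRNP proteins, SF3 subunits and the U2 auxiliary factor) or Prpf and a digit (pre-mRNA processing factors). The symbol pattern took 68 of the 21352 listed genes, of which 11 are SR genes, 21 hnRNP genes, 23 snRNP, SF3 and U2AF genes, and 13 PRPF genes. The pattern reads symbols and uses no expression value, although it was written with earlier results of these data known. After genes averaging under 0.5 FPKM across the 9 libraries were set aside, 66 of the 68 were tested among 11012 genes. The other two, Srsf12 and the pseudogene Hnrnpa1l2-ps2, had at most 0.01 and 0.27 FPKM in a library.

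RNA came from HT-22, an immortalized mouse cell line of hippocampal origin. The 3 control libraries are labelled wild type, and what those cells were given is not stated in the sources used here. The 3 HTL libraries are of cells kept in 2 mM homocysteine thiolactone (HTL), a reactive cyclic thioester of homocysteine, for 24 hours. The 3 betaine plus HTL libraries are of cells that received 10 mM betaine, a methyl donor and osmolyte, for 4 hours ahead of the same HTL exposure. All 3 groups are the same cell line in the same medium with serum. Betaine without HTL has no library here, so a difference between betaine plus HTL and HTL cannot be told apart from what betaine would do without HTL. The labels do not say whether the replicates are separate cultures, and the p-values therefore measure only how far these libraries differ among themselves.

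Pre-mRNA splicing removes introns in steps carried out by the spliceosome. SR proteins bind exonic enhancers through RNA recognition motifs and recruit the U1 snRNP and U2AF through their arginine-serine domains, whereas hnRNP proteins coat nascent RNA and often repress nearby splice sites, so the balance of the families is known to set splice site choice. The U1 snRNP marks the 5′ splice site, U2AF and the U2 snRNP with SF3a and SF3b mark the 3′ splice site and branch point, and PRPF proteins build and remodel the tri-snRNP that brings in the catalytic core. In neurons, alternative splicing is used widely to diversify receptors, channels and cytoskeletal proteins.

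Reads on listed genes, as recovered from the steps of the FPKM values, ranged from 33249286 to 39401508 per library. Among tested members the fewest reads in a library were 605 (U2af1l4) and the most were 49953 (Hnrnpa1). Mean levels of tested members ran from 4.88 FPKM (Prpf39) to 626 FPKM (Hnrnpa1), with a median of 68.6 FPKM. FPKM (fragments of a gene scaled by its length and by the mapped fragments of the library) gives 1 value per gene, so splice isoforms are not separated. Of 5 measured neuronal markers, 1 averaged more than 0.5 FPKM, which was Tubb3 at 9.52 FPKM. Rbfox3, which encodes NeuN, reached at most 0.0021 FPKM, Mapt at most 0.016 FPKM and Map2 at most 0.41 FPKM in a library, so defining markers of mature neurons were at or near 0. Of 5 fibroblast markers, 3 averaged more than 0.5 FPKM, which were Vim at 883, Col1a1 at 121 and Pdgfra at 4.31 FPKM, while Dcn and Lum were at 0.43 and 0.0014 FPKM. No astrocyte, microglial, oligodendrocyte or endothelial marker examined (11 genes) had a mean of 0.5 FPKM. In bulk RNA, fewer cells of a type and less RNA per cell cannot be told apart.

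RefSeq promoter windows (GRCm38.p6) were matched for 59 of the 68 genes, giving 77 windows that were read from 200 bases before a start to the base before it. The 6 windows shown belong to SR genes that were lower in betaine plus HTL cells (Srsf1, Srsf2, Srsf9), to the SR gene with the largest rise under HTL (Srsf5), to the hnRNP gene with the largest fall from control (Hnrnpd), and to the gene with the largest rise under HTL among the 66 tested (Sf3b3). They lie at chr11:88047173-88047372 on the plus strand, chr11:116853095-116853294 on the minus strand, chr5:115326977-115327176 on the plus strand, chr12:80945299-80945498 on the plus strand, chr5:99978939-99979138 on the minus strand and chr8:110846804-110847003 on the minus strand, in that order. The Srsf1 and Srsf2 windows lie wholly, and the Hnrnpd window for the most part, within the gene's span given below, since they precede an inner annotated start. Capitals mark any of the letters searched on both strands, which are the GC box (GGGCGG), the CCAAT box (CCAAT), an ETS site (CCGGAAG), the CRE (TGACGTCA), the E-box (CACGTG) and the TATA box (TATAAA).
Srsf1: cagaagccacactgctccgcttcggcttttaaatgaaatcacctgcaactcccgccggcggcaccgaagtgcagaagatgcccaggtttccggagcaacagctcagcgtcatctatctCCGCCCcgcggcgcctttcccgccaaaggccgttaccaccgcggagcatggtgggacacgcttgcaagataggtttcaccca
Srsf2: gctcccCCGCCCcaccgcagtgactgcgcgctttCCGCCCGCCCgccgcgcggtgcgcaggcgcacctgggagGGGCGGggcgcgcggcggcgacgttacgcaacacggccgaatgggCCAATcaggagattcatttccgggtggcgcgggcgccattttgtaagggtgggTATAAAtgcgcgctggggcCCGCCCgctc
Srsf9: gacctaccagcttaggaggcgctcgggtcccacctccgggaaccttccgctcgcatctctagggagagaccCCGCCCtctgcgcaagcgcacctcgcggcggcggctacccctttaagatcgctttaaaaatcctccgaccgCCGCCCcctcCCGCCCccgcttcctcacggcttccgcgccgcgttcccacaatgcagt
Srsf5: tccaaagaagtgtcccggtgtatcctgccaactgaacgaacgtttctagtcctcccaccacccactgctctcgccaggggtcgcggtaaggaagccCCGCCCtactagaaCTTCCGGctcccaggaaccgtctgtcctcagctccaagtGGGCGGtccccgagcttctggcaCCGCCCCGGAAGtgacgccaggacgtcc
Hnrnpd: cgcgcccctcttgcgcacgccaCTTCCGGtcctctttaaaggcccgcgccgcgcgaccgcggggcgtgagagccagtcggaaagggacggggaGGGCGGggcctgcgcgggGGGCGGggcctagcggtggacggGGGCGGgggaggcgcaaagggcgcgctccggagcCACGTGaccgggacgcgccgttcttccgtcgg
Sf3b3: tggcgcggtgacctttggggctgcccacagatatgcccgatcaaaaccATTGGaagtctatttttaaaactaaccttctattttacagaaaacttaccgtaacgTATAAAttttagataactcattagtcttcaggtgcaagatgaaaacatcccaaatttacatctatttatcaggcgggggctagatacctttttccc
The windows of all 4 SR genes shown hold the GC box, with 1 match in Srsf1, 5 in Srsf2, 3 in Srsf9 and 3 in Srsf5. A TATA box begins 29 bases before the inner Srsf2 start. The Hnrnpd window has 3 GC boxes and 77% G and C, while the Sf3b3 window has no GC box and 39.5% G and C. Over all member windows the GC box was present in 45 of 77 (58.4%), against 31% of 32851 windows of the same length in the table, and it was present in 13 of 14 SR windows. The CCAAT box was present in 44.2% of member windows against 29.3% of all, and the ETS site in 23.4% against 6.29%. The ETS site was in 9 of 21 snRNP, SF3 and U2AF windows, 3 of 14 SR, 3 of 28 hnRNP and 3 of 14 PRPF windows. The median G and C content was 60.5% in member windows and 53% in all windows, and windows of 1 gene can overlap. A match to such letters describes the sequence and is not a mapped binding site.

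The comparison of HTL with control cells asks what differed after exposure to the thiolactone. Among the 66 tested members Sf3b3, Prpf18 and Hnrnph3 rose the most, with log2 fold changes of 0.43, 0.35 and 0.35, and Hnrnpd, Srsf2 and Sf3b5 fell the most, with -0.24, -0.22 and -0.18. They encode a branch point factor, a late-step splicing factor, a binder of G-rich RNA, an AU-rich element binder, an SR protein and a small SF3b subunit, in that order. Of the 66 genes tested, 27 were higher and 12 lower in HTL cells (limma on log2(FPKM + 1), adjusted p under 0.05 over all genes tested), which is 59.1% called against 60.3% of all 11012 genes. Higher calls made up 40.9% of the members against 39.8% of all genes, and lower calls 18.2% against 20.4%. The count of calls with FPKM as deposited was thus near the background. The median log2 fold change was 0.024 for the members and 0.069 for all genes. Within the families, 8 of 13 PRPF genes were higher and 1 lower, 9 of 20 hnRNP genes were higher and 2 lower, 8 of 23 snRNP, SF3 and U2AF genes were higher and 5 lower, and 2 of 10 SR genes were higher and 4 lower. This split depends on how libraries are scaled. With median-of-ratios size factors, 8 members were called higher and 27 lower, and with quantile normalization 24 were higher and 16 lower. As deposited, higher calls were 69.2% of member calls and 66.1% of calls over all genes. With size factors these shares were 22.9% and 46.5%, with 53% of members and 57.7% of all genes called. With quantile normalization 60.6% of members and 56.4% of all genes were called, and higher calls were 60% and 52.2% of calls. In every one of 18 alternatives (other scalings, filters, pseudocounts and model forms, and each library left out in turn), 8 members stayed called higher (Hnrnph3, Hnrnpul2, Prpf18, Prpf39, Prpf40b, Sf3b2, Sf3b3, Srsf5) and 8 lower (Hnrnpd, Sf3b5, Snrpa1, Snrpf, Srsf1, Srsf2, Srsf3, U2af1). Prpf39 averages 4.88 FPKM and was not tested under the filter at 5 FPKM. The changes were small, with 8 of 66 members beyond 0.2 on the log2 scale and the largest at 0.43.

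The comparison of betaine plus HTL with HTL cells asks what differed with betaine given ahead. Hnrnph1, Srsf2 and the U1-associated Prpf39 fell the most, with log2 fold changes of -0.35, -0.30 and -0.29, each called in every alternative described for the first comparison in which it was tested. Here 36 of the 66 members were lower and 2 higher (Hnrnpll and Prpf40b), which is 57.6% called against 35.2% of all genes. Lower calls made up 54.5% of the members against 20.6% of all genes, and higher calls 3.03% against 14.5%. Lower calls were seen in 7 of 10 SR, 11 of 20 hnRNP, 13 of 23 snRNP, SF3 and U2AF, and 5 of 13 PRPF genes. The median log2 fold change of the members was -0.10, against -0.02 for all genes, and 50 of the 66 lay below the median gene. With size factors 23 members were lower and 3 higher, and with quantile normalization 30 were lower and 3 higher. The direction was the same under each scaling, but the excess of calls over all genes was smaller with size factors. That scaling called 39.4% of members and 33.7% of all genes, with higher calls 11.5% and 55.3% of calls. Quantile normalization called 50% and 35.1%, with higher calls 9.09% and 51.8% of calls. Under the filter at 5 FPKM 56.9% of members and 41.8% of all genes were called. In all 18 alternatives 22 members stayed called lower and 1 higher (Hnrnpll).

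Betaine plus HTL against control, which shares libraries with both comparisons above, gave 12 members higher and 30 lower. That is 63.6% called against 63.4% of all genes, with lower calls at 45.5% of members against 25.7% of all genes and higher calls at 18.2% against 37.7%. The median of the members was -0.057 and that of all genes 0.043. No SR gene was higher and 7 of 10 were lower. Size factors gave 8 higher and 39 lower, and quantile normalization 17 higher and 24 lower. Called shares with size factors were 71.2% of members and 62.9% of all genes, with higher calls 17% and 48.2% of calls. Quantile normalization called 62.1% and 61.4%, with higher calls 41.5% and 52.4% of calls. The largest log2 change of a member was -0.51 (Srsf2), and 20 of 66 lay beyond 0.2.

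**Figure D1:**
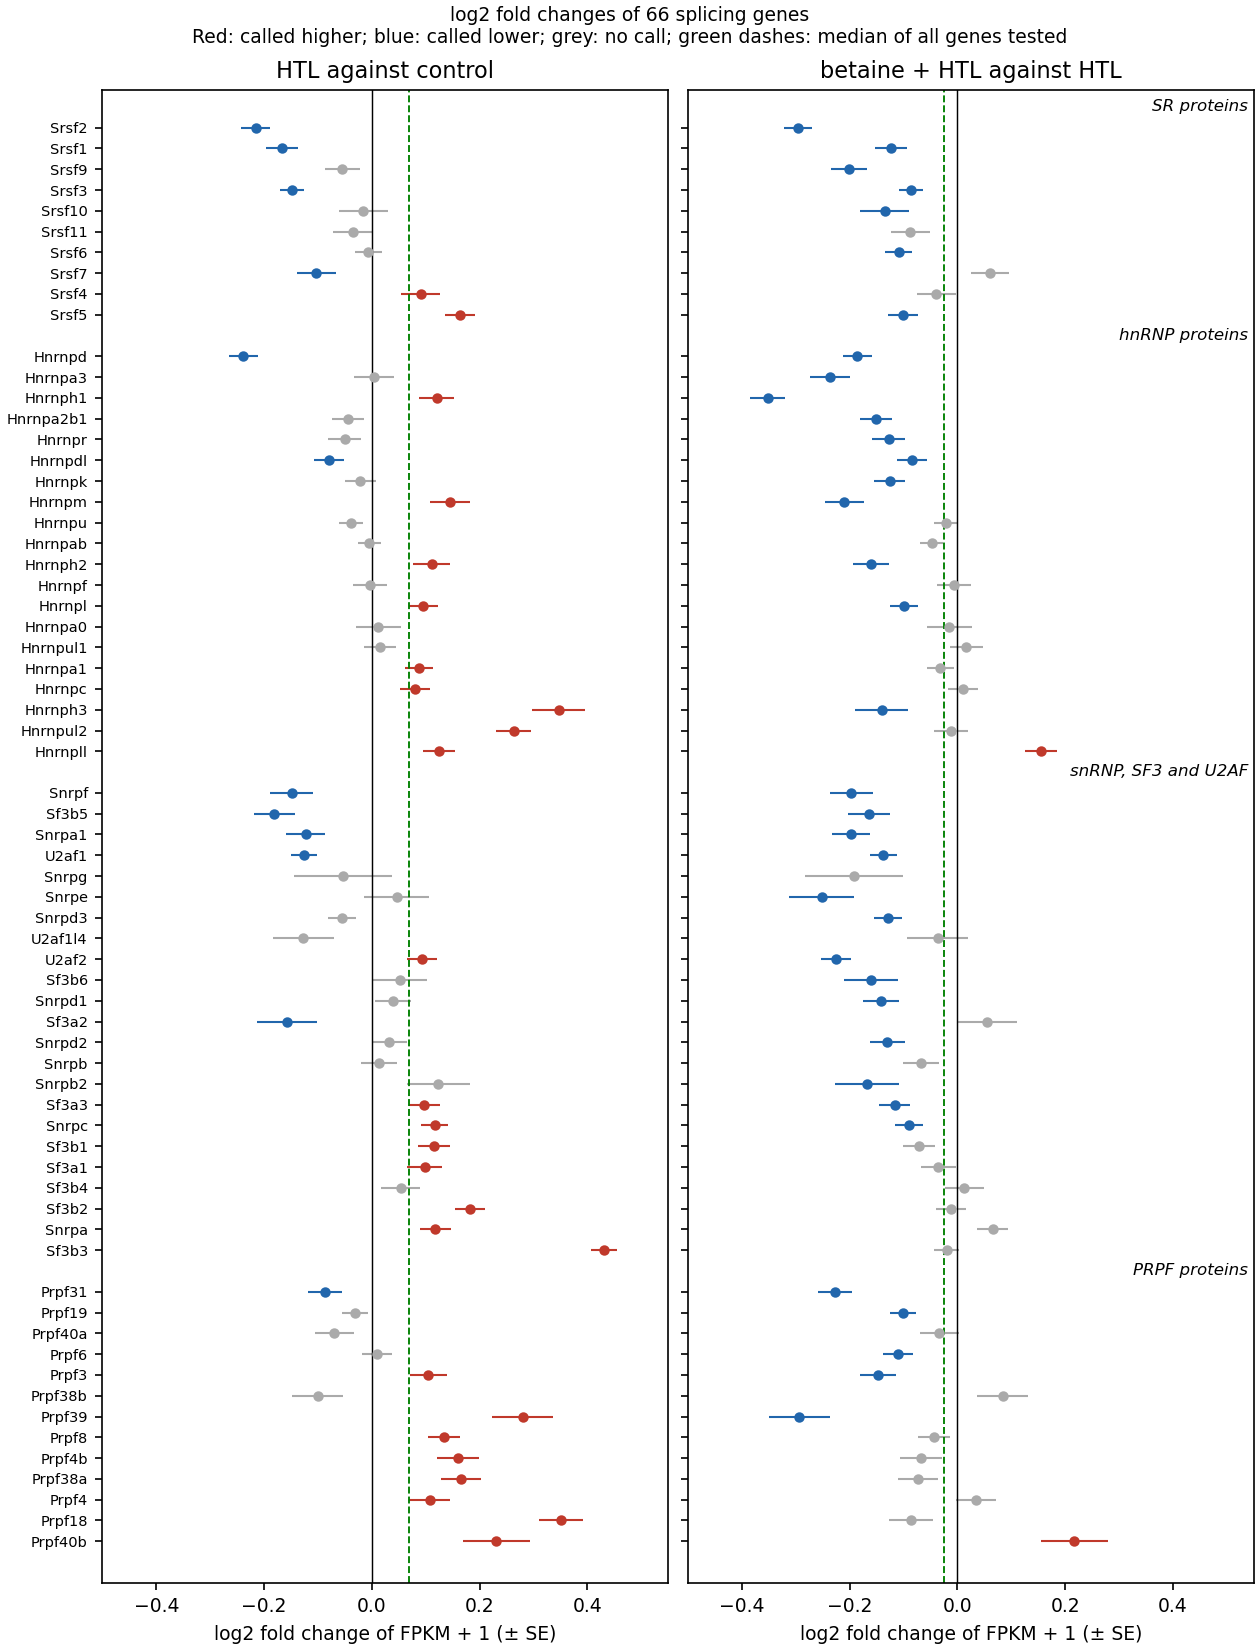
log2 fold changes of FPKM + 1 (points, with bars for the standard error of the limma fit) for the 66 tested splicing genes, by family, in HTL against control (left) and betaine plus HTL against HTL (right), with the median of all genes as a green dashed line. On the left 27 genes are called higher and 12 lower, with Sf3b3 farthest to the right at 0.43, and on the right 36 are called lower and 2 higher.

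**Figure D2:**
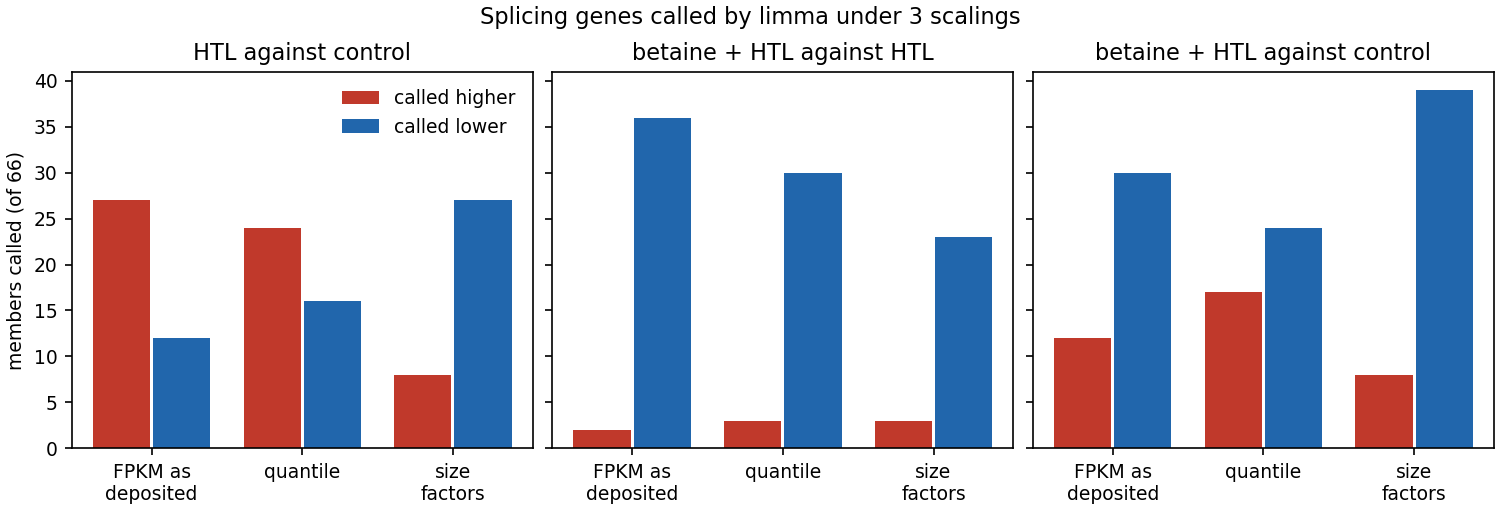
Number of the 66 tested splicing genes called higher (red) or lower (blue) by limma under 3 scalings of the libraries, in each of the 3 comparisons. In HTL against control the split is 27 higher and 12 lower with FPKM as deposited and 8 and 27 with size factors. Higher calls over all genes go from 66.1% to 46.5% of calls there. In betaine plus HTL against HTL, lower calls lead under each scaling, with 36, 30 and 23.

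SR genes as a family were highest in control and lowest in betaine plus HTL cells. Their summed level was 832, 840 and 821 FPKM in the control libraries, 774, 795 and 794 FPKM in HTL, and 728, 720 and 731 FPKM in betaine plus HTL. The 3 groups did not overlap, and the family's share of the library's FPKM went from 0.208% to 0.199% and 0.184%. Srsf3 was the most abundant SR gene in every library.

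Srsf2 (chromosome 11, 116849897 to 116853675, GRCm38), the speckle protein also known as SC35, had the largest fall of the 66 tested members in betaine plus HTL against control. It measured 121, 123 and 118 FPKM in control, 103, 103 and 105 FPKM in HTL, and 83.3, 82.7 and 87.1 FPKM in betaine plus HTL libraries. Each group lay wholly below the previous one. The log2 fold change was -0.22 ± 0.03 (SE) in HTL against control (limma adjusted p = 3.8e-05), -0.30 ± 0.03 in betaine plus HTL against HTL (1.33e-05) and -0.51 ± 0.03 against control (3.92e-08). Exons of the antisense neighbours Mettl23 and Mfsd11 cover 15.6% and 9.74% of the Srsf2 exons in GENCODE M21, and since the strand setting of the counting is not given in the sources used here, reads of such overlaps cannot be told apart.

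Srsf1 (chromosome 11, 88046499 to 88053757), which promotes use of proximal 5′ splice sites, measured 117, 120 and 113 FPKM in control, 101, 105 and 106 FPKM in HTL, and 96.9, 93.8 and 95.4 FPKM in betaine plus HTL libraries. Again the 3 groups did not overlap. It fell by 0.17 on the log2 scale under HTL (limma adjusted p = 0.000613) and by a further 0.12 with betaine ahead of HTL (0.00845), the latter call being lost with quantile normalization (0.0548). Srsf3 (chromosome 17, 29032660 to 29043372), a small SR protein that also takes part in mRNA export, measured 165, 166 and 161 FPKM in control, 146, 150 and 147 FPKM in HTL and 139, 140 and 138 FPKM in betaine plus HTL libraries. Its groups were likewise separate. The log2 fold change was -0.15 ± 0.02 in HTL against control (limma adjusted p = 0.000168) and -0.09 ± 0.02 between the treated groups (0.0114), and the second call was lost with size factors (0.101) and without HTL replicate 2 (0.051).

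Srsf5 (chromosome 12, 80945495 to 80950507) went the other way under HTL. Its libraries measured 93.1, 98.7 and 96.5 FPKM in control, 106, 110 and 106 FPKM in HTL, and 100, 98.6 and 102 FPKM in betaine plus HTL. All HTL libraries were above both other groups, while control and betaine plus HTL overlapped at 98.7 and 98.6 FPKM. The rise under HTL was 0.16 ± 0.03 on the log2 scale (limma adjusted p = 0.000427) and the fall with betaine ahead of HTL was -0.10 ± 0.03 (0.016), the latter lost under both other scalings and without HTL replicate 2 or betaine plus HTL replicate 2. Srsf4, the other SR gene called higher under HTL, went from 22.6 ± 0.54 to 24.1 ± 0.65 FPKM (SD, n = 3 each), and this call was lost in 10 of 18 alternatives. The antisense transcript Gm12992 covers 43% of its exons, so the level of Srsf4 is uncertain.

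Srsf9, which was not called in HTL against control, measured 72.6, 73.4 and 70.5 FPKM in HTL and 63.3, 59.7 and 65.0 FPKM in betaine plus HTL libraries, with 75.0 ± 1.29 FPKM in control. The groups were separate, and the log2 fold change between the treated groups was -0.20 ± 0.03 (limma adjusted p = 0.000801). Srsf6 was level between control and HTL, at 94.3 ± 2.51 and 93.8 ± 1.36 FPKM, and fell to 86.9 ± 0.18 FPKM (limma adjusted p = 0.00641). Srsf10, a splicing repressor when dephosphorylated, fell from 29.0 ± 2.04 to 26.3 ± 0.72 FPKM, though libraries overlapped and the call was lost in 10 of 18 alternatives. Srsf7 stood at 90.3, 84.1 and 87.7 FPKM in the 3 groups, and its call as lower under HTL was lost in 7 of 18 alternatives. Srsf11 was not called in either comparison with HTL cells, with means of 21.8, 21.3 and 19.95 FPKM.

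**Figure D3:**
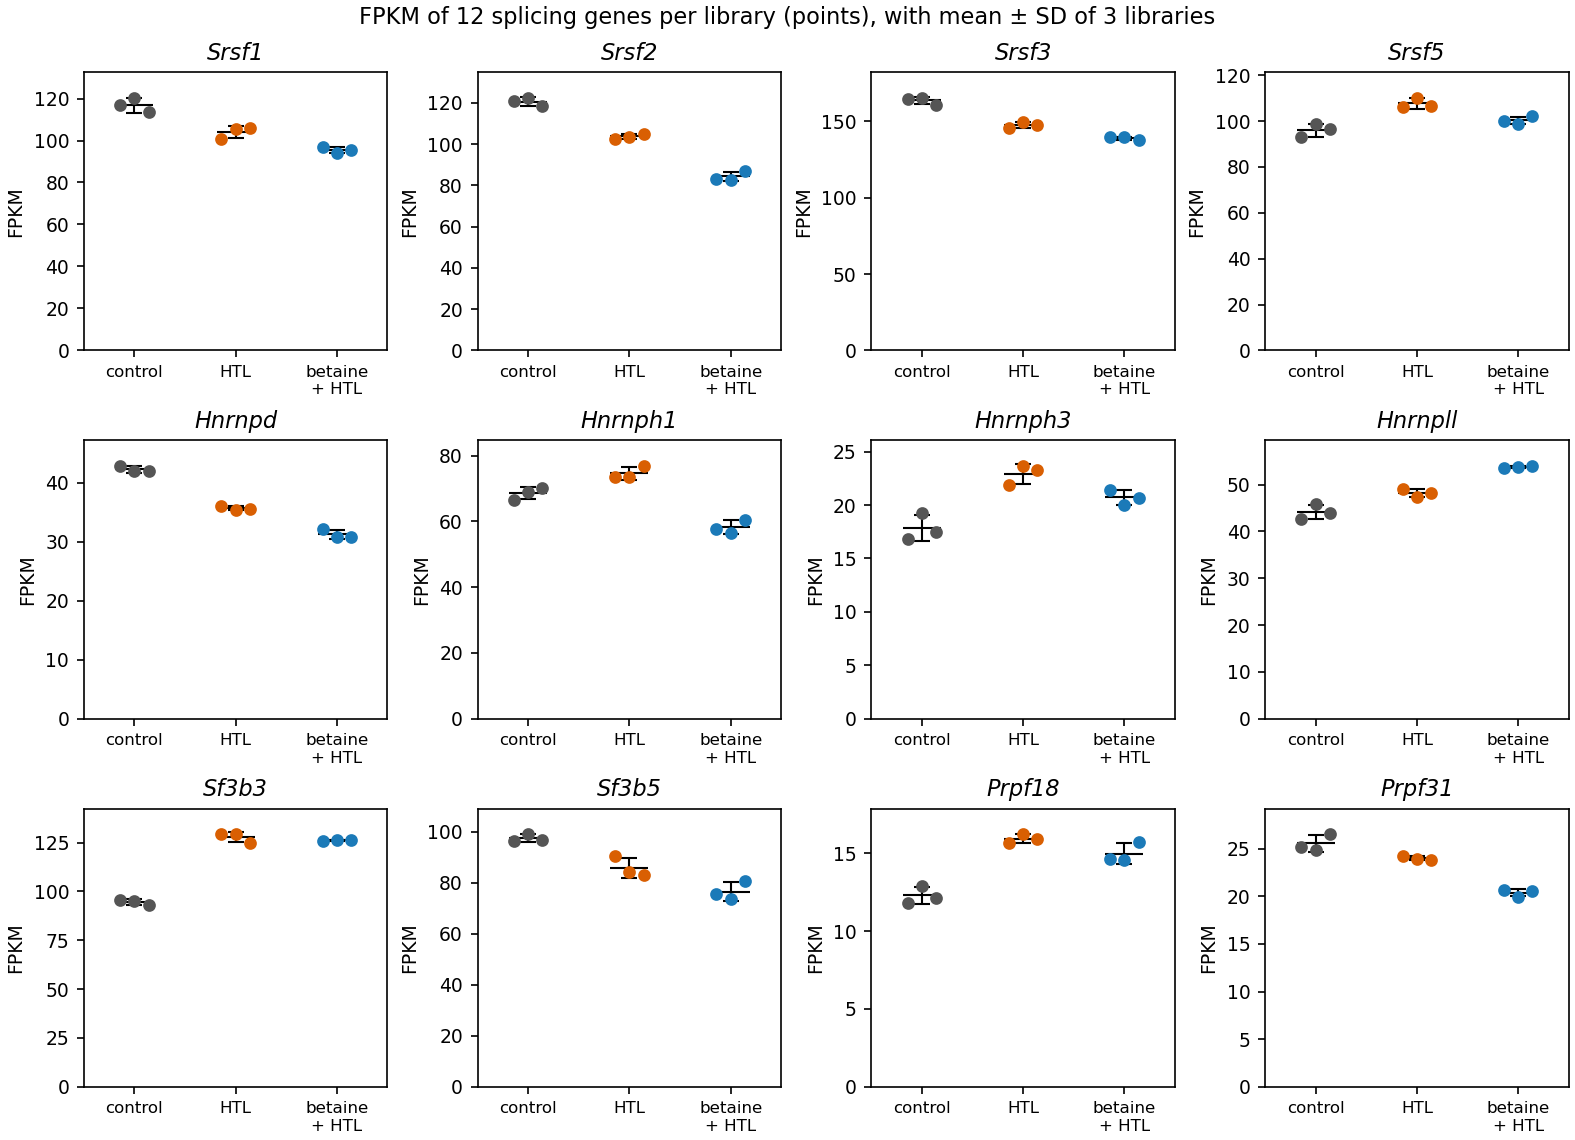
FPKM of 12 splicing genes in each library (points), with the mean and SD of 3 libraries per group. Srsf1, Srsf2, Srsf3, Hnrnpd and Sf3b5 step down from control to HTL to betaine plus HTL, Sf3b3 sits near 95 FPKM in control and near 126 FPKM in both treated groups, and Hnrnph1 is highest in HTL and lowest in betaine plus HTL.

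Among hnRNP genes the changes went in both directions under HTL and mostly down with betaine ahead of it. The summed level was 2528, 2530 and 2535 FPKM in control, 2621, 2608 and 2599 FPKM in HTL, and 2509, 2419 and 2478 FPKM in betaine plus HTL libraries. With FPKM as deposited, HTL libraries were the highest and betaine plus HTL libraries the lowest, with no overlap. Size factors were 0.96 to 0.97 in control and 1.02 to 1.03 in HTL libraries. Dividing the sums by them puts all control libraries above all HTL libraries. The median log2 fold change of the 20 tested genes was 0.014 in HTL against control, where it turned to -0.073 with size factors, and -0.091 in betaine plus HTL against HTL, where it was below 0 under each scaling.

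Hnrnpd (chromosome 5, 99955935 to 99979130), or AUF1, binds AU-rich elements and is known for its part in mRNA decay. Its level was 42.9, 41.9 and 41.9 FPKM in control, 36.0, 35.4 and 35.6 FPKM in HTL, and 32.1, 30.8 and 30.9 FPKM in betaine plus HTL libraries. No libraries of different groups overlapped. The log2 fold change was -0.24 ± 0.03 under HTL (limma adjusted p = 1.86e-05), -0.19 ± 0.03 between the treated groups (0.000359) and -0.42 ± 0.03 against control (1.72e-07). Its close relative Hnrnpdl, which lies next to it on chromosome 5, went from 55.2 ± 1.16 to 52.2 ± 1.41 and 49.2 ± 0.64 FPKM. Both of its steps passed the test, at limma adjusted p = 0.0273 and 0.0373, but were lost in 5 and 10 of 18 alternatives, whereas the difference from control to betaine plus HTL (0.000349) was kept in all.

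Genes of the H and F subfamily, whose proteins bind runs of G, did not share 1 pattern. Hnrnph1 (chromosome 11, 50375257 to 50386528) measured 66.6, 68.9 and 70.2 FPKM in control, 73.4, 73.6 and 77.0 FPKM in HTL, and 57.8, 56.6 and 60.5 FPKM in betaine plus HTL libraries. HTL libraries were the highest and betaine plus HTL libraries the lowest. The rise under HTL was 0.12 ± 0.03 on the log2 scale (limma adjusted p = 0.00737, lost with size factors), and the fall between the treated groups, -0.35 ± 0.03 (1.64e-05), was the largest of the 66 tested members in that comparison. Hnrnph3 (chromosome 10, 63014664 to 63023980) measured 16.8, 19.2 and 17.5 FPKM in control, 21.9, 23.7 and 23.3 FPKM in HTL, and 21.5, 20.003 and 20.7 FPKM in betaine plus HTL libraries. All treated libraries were above all controls. It rose by 0.35 ± 0.05 under HTL (limma adjusted p = 0.000102). Its fall of -0.14 ± 0.05 between the treated groups (0.0429) was lost in 10 of 18 alternatives. Hnrnph2, on the X chromosome, rose from 80.0 ± 3.52 to 86.5 ± 2.38 FPKM under HTL and fell to 77.2 ± 1.33 FPKM with betaine ahead. The call of its rise was lost with size factors and without control replicate 3 or HTL replicate 2. Hnrnpf stayed between 29.4 and 31.2 FPKM in all 9 libraries.

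Hnrnpul2 (chromosome 19, 8819401 to 8834143), a relative of the scaffold attachment factor Hnrnpu, measured 50.9, 52.1 and 52.5 FPKM in control, 63.1, 62.7 and 61.4 FPKM in HTL, and 63.0, 58.9 and 64.0 FPKM in betaine plus HTL libraries. Both treated groups were above control and overlapped each other. The log2 fold change was 0.26 ± 0.03 in HTL against control (limma adjusted p = 3.48e-05) and -0.01 ± 0.03 between the treated groups (0.808). Hnrnpll (chromosome 17, 80029487 to 80062268), known as a regulator of CD45 splicing in T cells, was the hnRNP gene that rose in both steps. It measured 42.7, 45.8 and 44.0 FPKM in control, 49.1, 47.3 and 48.3 FPKM in HTL, and 53.5, 53.9 and 54.1 FPKM in betaine plus HTL libraries. The groups did not overlap. It rose by 0.13 ± 0.03 (limma adjusted p = 0.0032, lost with size factors) and then by 0.15 ± 0.03 (0.00197).

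Hnrnpa1 and Hnrnpab, the 2 most abundant hnRNP genes, differed little. Hnrnpa1 (chromosome 15, 103239943 to 103246698), a repressor that is known to oppose Srsf1 in splice site choice, measured 609, 602 and 607 FPKM in control, 651, 644 and 636 FPKM in HTL, and 652, 615 and 623 FPKM in betaine plus HTL libraries. HTL was above control in all libraries and overlapped betaine plus HTL. Its rise of 0.09 ± 0.03 (limma adjusted p = 0.0123) turned to -0.00073 with size factors (0.986). Hnrnpab stood at 351 ± 1.44, 350 ± 4.03 and 338 ± 5.63 FPKM and was not called in any comparison, and with quantile normalization its differences from control changed sign. Hnrnpa3, of the same A/B group, measured 25.2, 27.7 and 26.7 FPKM in control, 26.6, 26.5 and 26.6 FPKM in HTL, and 23.3, 21.9 and 22.0 FPKM in betaine plus HTL libraries. Its control and HTL libraries overlapped and lay above betaine plus HTL (log2 fold change -0.24 ± 0.04 between the treated groups, limma adjusted p = 0.000675). Hnrnpm rose from 165 ± 5.83 to 182 ± 3.16 and fell to 157 ± 7.62 FPKM, its rise being lost with size factors. Hnrnpa2b1, whose protein reads short motifs in many transcripts, was at 272 ± 2.98 and 264 ± 4.11 FPKM and fell to 238 ± 9.54 FPKM with betaine ahead of HTL (limma adjusted p = 0.00244). Hnrnpa1 has processed pseudogene copies, and reads that fit a copy may have been dropped or split.

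**Figure D4:**
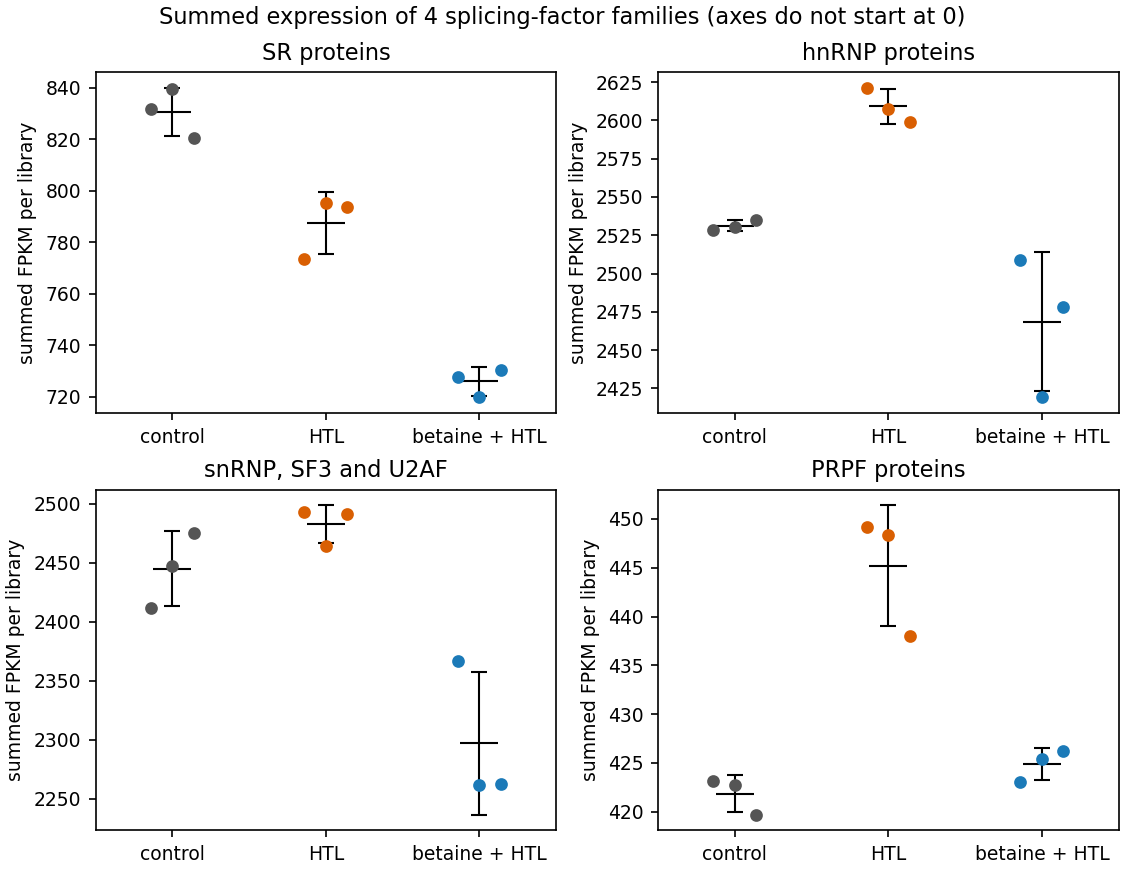
Summed FPKM of the 4 families in each library (points), with the mean and SD of 3 libraries per group, on axes that do not start at 0. The sums are of FPKM as deposited. SR sums step down from 831 to 788 and 726 FPKM, and the hnRNP and PRPF sums are highest in HTL with this scaling. The snRNP, SF3 and U2AF sum of betaine plus HTL replicate 1 (2367 FPKM) stands above its group's other libraries (2261 and 2263 FPKM).

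The snRNP, SF3 and U2AF genes moved in both directions under HTL, and all 13 calls between the treated groups were lower. Their summed level was 2412, 2448 and 2476 FPKM in control, 2493, 2464 and 2491 FPKM in HTL, and 2367, 2261 and 2263 FPKM in betaine plus HTL libraries. With FPKM as deposited, control and HTL overlapped, and both lay above betaine plus HTL. The median log2 fold change of the 23 genes was 0.046 in HTL against control, turning to -0.041 with size factors, and -0.13 in betaine plus HTL against HTL.

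SF3b clamps the branch point in the U2 snRNP, and its subunit genes moved apart. Sf3b3 (chromosome 8, 110810491 to 110846806), which encodes a large scaffold subunit also found in chromatin-modifying complexes, measured 95.7, 95.1 and 93.0 FPKM in control, 129, 129 and 125 FPKM in HTL, and 126 FPKM in each betaine plus HTL library. All treated libraries were above all controls. It rose by 0.43 ± 0.02 under HTL (limma adjusted p = 8.84e-08) and was not called between the treated groups (-0.02 ± 0.02, 0.544). Sf3b5 (chromosome 10, 13008450 to 13009183), the smallest subunit, measured 96.4, 99.1 and 96.6 FPKM in control, 90.3, 84.4 and 82.8 FPKM in HTL, and 75.5, 73.5 and 80.6 FPKM in betaine plus HTL libraries. The groups did not overlap. Its log2 fold change was -0.18 ± 0.04 under HTL (limma adjusted p = 0.00194) and -0.16 ± 0.04 between the treated groups (0.00746). Sf3b2 rose from 145 ± 3.78 to 165 ± 4.91 FPKM under HTL (limma adjusted p = 0.000198) and stayed at 164 ± 1.47 FPKM. Sf3b1, which contacts the branch point and is often mutated in myelodysplasia, rose from 61.5 ± 1.2 to 66.7 ± 0.54 FPKM, a call lost with size factors, and was at 63.4 ± 2.2 FPKM with betaine ahead. Sf3b4 was not called in any comparison, and Sf3b6 was called lower between the treated groups only, with overlapping libraries.

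Of the SF3a subunits, Sf3a1 and Sf3a3 were called higher under HTL (by 0.10 each on the log2 scale) and Sf3a2 lower. The calls of Sf3a1 and Sf3a3 were lost in 5 and 3 of 18 alternatives, size factors among them. Sf3a2 measured 84.9, 75.7 and 75.6 FPKM in control, 73.5, 69.3 and 68.5 FPKM in HTL, and 67.4, 77.5 and 75.0 FPKM in betaine plus HTL libraries. Control replicate 1 stood apart from the others of its group. The call (log2 fold change -0.16 ± 0.06, limma adjusted p = 0.0298) was lost in 5 of 18 alternatives, and without control replicate 1 the log2 fold change was -0.10 (0.124).

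U2AF reads the 3′ splice site as a dimer. U2af1 (chromosome 17, 31647081 to 31659148), the small subunit that contacts the terminal AG of the intron, measured 161, 157 and 153 FPKM in control, 145, 144 and 143 FPKM in HTL, and 133, 131 and 128 FPKM in betaine plus HTL libraries. The groups did not overlap. It fell by 0.13 on the log2 scale in the HTL comparison (limma adjusted p = 0.00115) and by 0.14 between the treated groups (0.00165). U2af2 (chromosome 7, 5060885 to 5079945), the large subunit that binds the pyrimidine tract, measured 46.4, 47.2 and 48.2 FPKM in control, 50.7, 50.5 and 50.3 FPKM in HTL, and 42.4, 42.3 and 44.4 FPKM in betaine plus HTL libraries. HTL was the highest and betaine plus HTL the lowest group, with no overlap. The rise was 0.09 ± 0.03 (limma adjusted p = 0.012, lost with size factors) and the fall -0.23 ± 0.03 (0.000122). U2af1l4 was called lower in betaine plus HTL against control only. In GENCODE M21, 65.6% of its exons overlap Gm49396 on the same strand, so its level is uncertain.

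The Sm core forms the protein ring around most spliceosomal snRNAs. Of its 7 genes, none was higher and 1 (Snrpf) lower in HTL against control, 5 were lower in betaine plus HTL against HTL, and 6 were lower in betaine plus HTL against control. Lower calls over all genes were at 20.4%, 20.6% and 25.7% in these comparisons. Of the 6 calls against control, Snrpg was lost in 9, Snrpd2 in 6, and Snrpd1 and Snrpe in 2 each of 18 alternatives. Quantile normalization was among the losses of each of these genes. Their summed level was 1175, 1225 and 1260 FPKM in control, 1201, 1186 and 1227 FPKM in HTL, and 1158, 1045 and 1041 FPKM in betaine plus HTL libraries. Betaine plus HTL replicate 1 lay above the other two of its group and control replicate 1 below its own. Snrpf (chromosome 10, 93583029 to 93589658) measured 117, 112 and 121 FPKM in control, 104, 104 and 107 FPKM in HTL, and 97.7, 89.3 and 88.0 FPKM in betaine plus HTL libraries. Its groups were separate, with log2 fold changes of -0.15 ± 0.04 (limma adjusted p = 0.00727) and -0.20 ± 0.04 (0.00299). Exons of the antisense gene Ccdc38 cover 65.9% of the Snrpf exons, and without strand the reads of both genes cannot be told apart.

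Snrpd3, the most abundant Sm gene over the 9 libraries, measured 236, 233 and 237 FPKM in control, 228, 226 and 225 FPKM in HTL, and 213, 209 and 200 FPKM in betaine plus HTL libraries. Its fall between the treated groups was -0.13 ± 0.03 (limma adjusted p = 0.00291), and under HTL it was called with size factors only among the scalings (-0.14, 0.00179). Snrpg, the next most abundant, measured 209, 243 and 254 FPKM in control, 223, 221 and 234 FPKM in HTL, and 233, 180 and 184 FPKM in betaine plus HTL libraries. Replicate 1 of control and replicate 1 of betaine plus HTL stood apart, so the groups overlapped. Snrpg was not called between the treated groups (-0.19 ± 0.09, limma adjusted p = 0.122) but was without betaine plus HTL replicate 1 (-0.31, 0.00582). Snrpe measured 180, 185 and 196 FPKM in HTL and 172, 150 and 150 FPKM in betaine plus HTL libraries, with 167, 186 and 191 FPKM in control. HTL was above betaine plus HTL in all libraries (log2 fold change -0.25 ± 0.06, limma adjusted p = 0.0074).

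Genes of U1 and U2 specific proteins did not move as 1 group. Snrpa, of the U1 snRNP, measured 72.9, 72.0 and 72.2 FPKM in control, 79.6, 79.2 and 77.0 FPKM in HTL, and 79.2, 84.9 and 82.9 FPKM in betaine plus HTL libraries. Both treated groups were above control, and the rise was 0.18 ± 0.03 in betaine plus HTL against control (limma adjusted p = 0.00018). Snrpa1, of the U2 snRNP, measured 67.0, 68.8 and 66.9 FPKM in control, 62.7, 60.2 and 63.0 FPKM in HTL, and 54.3, 56.5 and 51.1 FPKM in betaine plus HTL libraries. Its groups were separate, falling by 0.12 (limma adjusted p = 0.011) and 0.20 (0.00157) on the log2 scale. Snrpc of the U1 snRNP rose from 98.0 ± 0.97 to 106 ± 0.96 FPKM under HTL and fell to 99.8 ± 2.74 FPKM, with the rise lost under size factors and the fall under 4 alternatives.

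More PRPF genes were called higher than lower under HTL (8 against 1), but with size factors 3 were higher and 5 lower. The summed level was 423, 423 and 420 FPKM in control, 449, 448 and 438 FPKM in HTL, and 423, 425 and 426 FPKM in betaine plus HTL libraries. As deposited, HTL thus stood above both other groups, which overlapped. Dividing by the size factors (0.96 to 0.97 in control, 1.02 to 1.03 in HTL) makes control and HTL overlap. The median log2 fold change of the 13 genes was 0.11 under HTL and above 0 under each scaling. Prpf18 (chromosome 2, 4622058 to 4652135), which acts at the second catalytic step, measured 11.8, 12.9 and 12.2 FPKM in control, 15.7, 16.3 and 15.9 FPKM in HTL, and 14.6, 14.6 and 15.7 FPKM in betaine plus HTL libraries. Treated libraries were all above control, and the rise was 0.35 ± 0.04 under HTL (limma adjusted p = 2.76e-05).

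Prpf39 (chromosome 12, 65036334 to 65063386), whose protein associates with the U1 snRNP, measured 4.14, 4.89 and 4.51 FPKM in control, 5.29, 5.86 and 5.92 FPKM in HTL, and 4.49, 4.34 and 4.53 FPKM in betaine plus HTL libraries. HTL was above both other groups, which overlapped. It rose by 0.28 ± 0.06 (limma adjusted p = 0.00136) and fell by 0.29 ± 0.06 (0.00238). Prpf31 (chromosome 7, 3629985 to 3642485), a tri-snRNP protein mutated in retinitis pigmentosa, measured 25.2, 24.9 and 26.6 FPKM in control, 24.3, 23.9 and 23.9 FPKM in HTL, and 20.6, 19.9 and 20.5 FPKM in betaine plus HTL libraries. Its groups were separate. The fall between the treated groups was -0.23 ± 0.03 (limma adjusted p = 0.000283), while the smaller step under HTL (-0.09 ± 0.03, 0.0322) was lost without control replicate 3, HTL replicate 2 or HTL replicate 3. Prpf40b, a U1-associated protein with WW domains, measured 5.83, 5.99 and 5.93 FPKM in control, 6.85, 7.40 and 7.11 FPKM in HTL, and 7.53, 8.44 and 9.41 FPKM in betaine plus HTL libraries. Each group lay wholly above the previous one. The log2 fold change was 0.45 ± 0.06 in betaine plus HTL against control (limma adjusted p = 7.91e-05), and the step between the treated groups (0.22 ± 0.06, 0.0195) was lost in 4 of 18 alternatives.

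Prpf8, the scaffold of the catalytic centre, measured 134, 129 and 130 FPKM in control, 148, 145 and 138 FPKM in HTL, and 137, 142 and 139 FPKM in betaine plus HTL libraries. Treated libraries lay above control, with a rise of 0.13 ± 0.03 under HTL (limma adjusted p = 0.00243) that was lost with size factors (0.244). Prpf6, which bridges U5 and the other tri-snRNP parts, was at 53.5 ± 0.65 and 53.9 ± 1.38 FPKM in control and HTL and fell to 49.9 ± 1.15 FPKM (limma adjusted p = 0.0107, lost with size factors). Prpf19, the ubiquitin ligase of the Prp19 complex, was at 43.9 ± 0.48 and 42.9 ± 0.15 FPKM and fell to 40.0 ± 0.61 FPKM (limma adjusted p = 0.00774, lost with size factors). The kinase gene Prpf4b and Prpf38a, Prpf3 and Prpf4 were called higher under HTL by 0.10 to 0.17 on the log2 scale, each call being lost with size factors. In all, the calls of Prpf4, Prpf3 and Prpf4b were lost in 6, 4 and 2 of 18 alternatives.

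Ratios of 2 values in the same library do not depend on a scaling factor of the library, and they were chosen after values had been seen, so they are given with no test. The SR sum divided by the hnRNP sum was 0.329, 0.332 and 0.324 in control, 0.295, 0.305 and 0.305 in HTL, and 0.290, 0.298 and 0.295 in betaine plus HTL libraries. Control stood above both treated groups, which overlapped. The ratio of Srsf1 to Hnrnpa1 went from 0.193 ± 0.0068 in control to 0.162 ± 0.0065 in HTL and 0.151 ± 0.0024 in betaine plus HTL (SD, n = 3 each). Srsf2 to Srsf5 went from 1.26 ± 0.037 to 0.964 ± 0.025 and 0.841 ± 0.012, so Srsf2 was the more abundant of the pair in control libraries and the less abundant in all treated ones. Sf3b3 to Sf3b5 went from 0.971 ± 0.018 to 1.49 ± 0.052 and 1.65 ± 0.077. Such a ratio shows unequal change and not which of its parts changed.

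**Figure D5:**
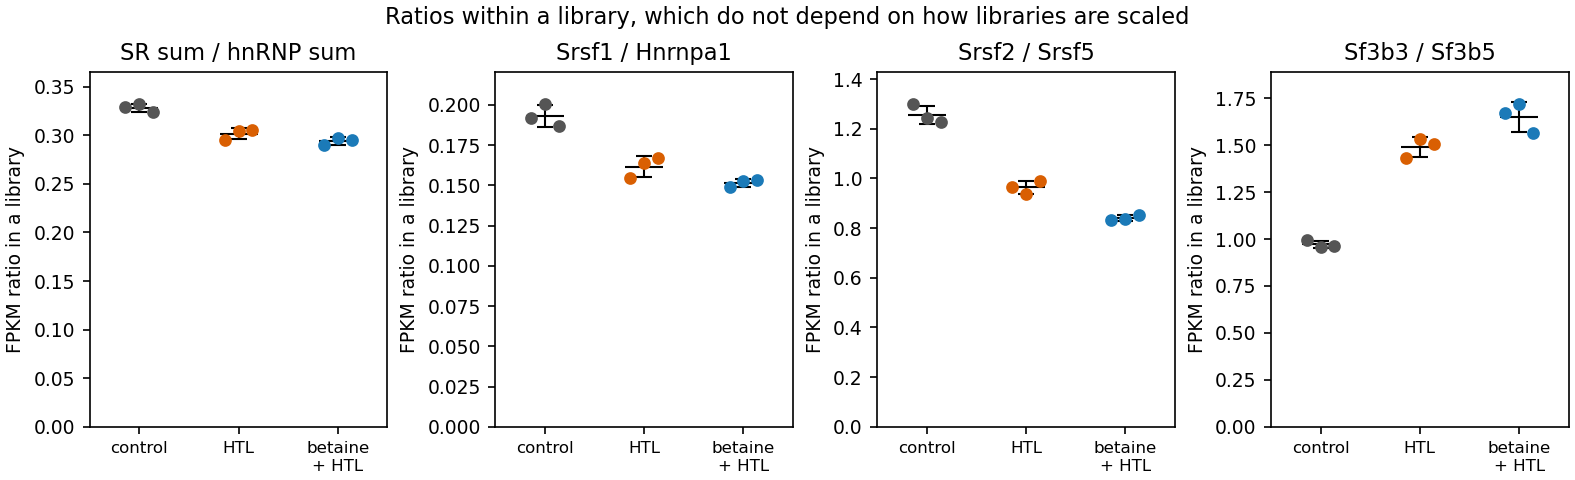
Ratios of FPKM within each library (points), with the mean and SD of 3 libraries per group. The SR to hnRNP ratio goes from 0.328 in control to 0.302 in HTL and 0.294 in betaine plus HTL, Srsf2 to Srsf5 passes from above to below 1, and Sf3b3 to Sf3b5 rises from 0.971 to 1.65.

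In each comparison genes under 1 kb had lower median log2 fold changes than longer ones, among members and among all genes tested. Lengths were inferred from the FPKM steps. The 8 members under 1 kb are Sf3b5, U2af1l4 and the Sm genes other than Snrpb. All 8 were called lower in betaine plus HTL against control (25.7% of all genes were). With quantile normalization the calls of Snrpd1, Snrpd2, Snrpe and Snrpg were lost, and that of U2af1l4 was lost in 4 of 18 alternatives. The median log2 fold change of the 8 was -0.19, and all 673 tested genes of that length had a median of -0.08. The 21 members of 1 to 3 kb had a median of -0.04 against -0.0011 for all 3714 genes of that length, and the 37 members of 3 kb and over had a median of -0.04 against 0.08 for all 6614 genes of that length. In betaine plus HTL against HTL the medians were -0.15 and -0.09 for members and all genes under 1 kb, -0.09 and -0.05 for those of 1 to 3 kb, and -0.09 and -0.01 for those of 3 kb and over. In HTL against control the member medians were -0.05, 0.05 and 0.02 in these classes, with no steady order, and those of all genes were 0.01, 0.05 and 0.08. The part of length in these differences was not tested.

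Other genes of the splicing pathway were read from 8 lists in the same fit. For each list, shares over all genes are given to set beside the counts. With FPKM as deposited they are 39.8% higher and 20.4% lower under HTL, and 14.5% higher and 20.6% lower between the treated groups. With size factors 57.7% of all genes were called under HTL, 46.5% of these calls being higher. Between the treated groups that scaling called 33.7%, with 55.3% of calls higher. Quantile normalization called 56.4% under HTL, with 52.2% of calls higher. The alternative splicing regulators, such as PTB and MBNL proteins, had 6 of 31 genes higher (19.4%) and 7 lower (22.6%) under HTL, and 1 higher (3.23%) and 13 lower (41.9%) with betaine ahead of it. With size factors it had 2 higher and 17 lower, and 3 higher and 8 lower, in the same comparisons. The genes of all these lists that are named here were chosen after their values were seen. Tardbp, whose protein TDP-43 represses cryptic exons, went from 56.2 to 61.6 and 49.8 FPKM, and Ewsr1 went from 58.8 to 59.4 and 50.5 FPKM. Taf15, which encodes another RNA-binding protein, rose in both steps, from 54.2 to 60.7 and 67.2 FPKM. The rises of Tardbp and Taf15 under HTL were lost with size factors, and that of Taf15 between the treated groups in 4 of 18 alternatives. The neuronal regulators Nova1, Nova2 and Rbfox3 were under 0.5 FPKM on average and were not tested.

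The Prp19 and related genes had 11 of 17 higher (64.7%) and 1 lower (Isy1) under HTL, and 1 higher and 7 lower (41.2%) with betaine ahead. With size factors 6 were higher and 2 lower under HTL. The SR kinases and SR-like factors had 9 of 21 higher (42.9%, near the share of all genes) and 2 lower (9.52%) under HTL, with 2 higher (9.52%) and 3 lower (14.3%) between the treated groups. With size factors 6 were higher and 4 lower under HTL. Among them the kinase gene Clk3, whose product phosphorylates SR proteins, was at 13.4, 15.2 and 19.0 FPKM in the 3 groups and rose in both steps, the rise under HTL being lost with size factors, and Srrm2, a scaffold of nuclear speckles, rose from 72.5 to 92.0 FPKM under HTL and was at 96.0 FPKM with betaine ahead. Helicase and tri-snRNP genes had 8 of 19 higher (42.1%) and 3 lower (15.8%) under HTL, and 1 higher (5.26%) and 5 lower (26.3%) between the treated groups, against 6 higher and 4 lower under HTL with size factors. Within this list the helicase gene Ddx39b, which also acts in mRNA export, rose from 166 to 277 FPKM under HTL (log2 fold change 0.74), and Ddx46, an ATPase of U2 snRNP assembly, fell from 28.2 to 19.4 FPKM (-0.52).

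Genes that assemble snRNPs with the SMN complex had 3 of 15 higher (20%) and 5 lower (33.3%) under HTL, and none higher and 2 lower (13.3%, Gemin4 and Gemin6) between the treated groups. With size factors 2 were higher and 7 lower under HTL. Gemin6 went from 23.7 to 16.8 and 14.8 FPKM and Gemin4 from 23.1 to 18.3 and 15.8 FPKM, and the second step of Gemin6 was lost without HTL replicate 3. LSM genes, some of whose products form the ring of U6 snRNA, had 1 of 10 higher (10%, Lsm3) and none lower under HTL. Size factors gave none higher and 3 lower there. Between the treated groups 2 LSM genes were lower (20%). Exon junction and nonsense-mediated decay genes had 9 of 17 higher (52.9%) and 3 lower (17.6%) under HTL, where size factors gave 4 higher and 6 lower, and 3 higher (17.6%) and 4 lower (23.5%) between the treated groups. The minor spliceosome genes had 5 of 11 higher (45.5%) and 2 lower (18.2%) under HTL, and 1 higher (9.09%) and 3 lower (27.3%) between the treated groups. Under both other scalings 3 were higher and 3 lower under HTL, and the median log2 fold change turned from 0.03 to -0.04 with size factors and -0.06 with quantile normalization.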

How the data were processed

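RNA-seq libraries of 3 groups with 3 replicates each were analysed from the table of FPKM per gene that the authors deposited, per the file headers. The tools named are R 3.2.0, HTSeq, HISAT2 and fastp, and the genome build is mm10 (mouse), per the submitters' processing notes. For their options, the annotation and the strand setting, the sources used here give nothing. Reads of near-identical copies or overlapping genes may therefore be dropped or split. Beyond the overlaps given with single genes, Phykpl covers 29.1% of the Hnrnpab exons, Gm15927 18.1% of Prpf31 and Plekhj1 16.1% of Sf3a2, all antisense. March2 covers 14.7% of the Hnrnpm exons on the same strand. Levels of these genes carry the same uncertainty.

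Library totals and gene lengths were recovered from the steps of low FPKM values in Python 3.11.15. With them 21332 of 21352 genes gave whole reads within 0.05 reads, a weak check because each length was fitted. Genes averaging 0.5 FPKM or more were tested on log2(FPKM + 1), which understates changes of low genes, with limma 3.58.1 in R 4.3.3 (group means, intensity trend, 6 residual degrees of freedom). All tests were two-sided and p-values were adjusted by Benjamini-Hochberg over all 11012 genes of each of 3 comparisons and a threshold of 0.05. An exact permutation test of 3 against 3 libraries cannot go below 0.1. The fit and the depth recovery were tested on simulated data.

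The splicing genes, the lists of related genes and the markers were chosen with earlier results of these data known. Genes named with values in full, apart from U2af1 and Snrpa1, were picked by a rule per comparison and family. The rule took the 2 most abundant members. It also took the 2 largest rises and falls among called genes reaching 1 FPKM in their higher group whose libraries do not overlap. U2af1, Snrpa1, other members and list genes were named after their values were seen. Gene positions are RefSeq GRCm38 and exon overlaps GENCODE M21, the build mm10 being GRCm38. Alternatives were median-of-ratios size factors, quantile normalization, pseudocounts of 0.5 and 0.1, filters at 5 FPKM and none, no intensity trend, a replicate block, a fit of only the 2 groups compared, and leaving out each library.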

Additional observations from a re-analysis of the deposited data

How the results depend on the processing

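Of the alternatives, the scaling of the libraries moved the results most. In HTL against control, size factors gave 8 splicing genes higher and 27 lower, against 27 and 12. Higher calls over all genes went from 66.1% to 46.5% of calls with that scaling. It also turned the median log2 fold change of the members from 0.024 to -0.063. That median was 0.045 with quantile normalization, 0.015 with no filter on low values and 0.015 with the filter at 5 FPKM, and 0.018 to 0.0398 with 1 library left out. In betaine plus HTL against HTL, size factors gave 23 lower and a median of -0.069, and quantile normalization a median of -0.078. Size factors called 39.4% of members and 33.7% of all genes, against 57.6% and 35.2% with FPKM as deposited. Higher calls there numbered 1 without a filter and 1 to 3 with 1 library left out. In betaine plus HTL against control the median was -0.031 with quantile normalization, -0.11 with size factors, and -0.075 to -0.055 with 1 library left out. The cause of these shifts was not tested. The sign turned in at least 1 alternative for 19 of the 66 genes in HTL against control, 9 in betaine plus HTL against HTL and 16 in betaine plus HTL against control. Of these, 2 had been called, both in HTL against control with the sign turned by size factors (Hnrnpa1, and Hnrnpc at -0.0067). Among the genes named by rule for each comparison, signs turned in HTL against control for Hnrnpab with quantile normalization (0.046) and with 1 library left out (-0.0136 to 0.00218, above 0 without HTL replicate 3), Hnrnpa1 with size factors (-0.00073), Snrpg with 1 library left out (-0.136 to 0.004004, above 0 without control replicate 3), and Prpf6 with size factors (-0.077) and with 1 library left out (-0.01035 to 0.0248, below 0 without control replicate 3 or HTL replicate 1). In betaine plus HTL against control signs turned for Hnrnpab with quantile normalization (0.032) and Hnrnpa1 with size factors (-0.0012). Of the other values of genes named by rule, 1032 kept direction and side of the threshold, 45 lost the call and 10 gained it. The counts and medians of members are not part of this tally.

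Libraries with the same replicate number did not deviate together (correlations of -0.073 to 0.059). The labels do not say whether the numbers pair libraries, and such correlations cannot exclude it. With the replicate block, 26 splicing genes were higher and 14 lower in HTL against control, 2 and 34 in betaine plus HTL against HTL, and 12 and 28 in betaine plus HTL against control. Gene-level values hold no information on isoform use.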
